A study of Mus musculus with 8 samples.

Results

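The H3K4me3 landscape of wild-type mouse embryonic stem cells (wt mESCs) was read from 2 of the 8 libraries of the series, the H3K4me3 ChIP of these cells and their own input chromatin, with 1 library on each side. A promoter was called marked where at least 10 H3K4me3 tags lay within 1 kb of the transcriptional start site and their number, scaled to the size of the library, was at least 4-fold above input, with 1 tag added to each count. A region was called enriched where neighbouring 200-bp windows, each with at least 5 tags, joined over gaps of up to 400 bp into a stretch of at least 600 bp that was at least 3-fold above input. By these rules 12177 of 22216 protein-coding promoters carried the mark, and 12031 enriched regions were found.

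The study compared wt and menin-null mESCs, before and after their differentiation in culture into pancreatic islet-like endocrine cells (PILECs), by mapping H3K4me3 with ChIP-Seq. It also profiled gene expression in these cells with microarrays, which were not used here. The wt mESCs are the TC-1 line, of 129S6/SvEvTac background, grown with leukemia inhibitory factor on irradiated fibroblast feeders, which were then removed by repeated short platings. Beside the wt mESC pair, the H3K4me3 library of menin-null mESCs (Men1-KO, same background) was used to choose among the annotated starts of a gene and is plotted once beside wt mESC values, and the H3K4me3 library of wt PILECs, which come from the same TC-1 cells, was set beside some wt mESC values. The wt PILEC library was deeper, with 18773635 tags beside 2432377 of wt mESC H3K4me3, and was not set against its own input. Each state is 1 cell line and 1 library, so no test of a difference could be made. Intervals of tag counts and ratios are exact 95% intervals that cover counting error only. Those of shares are exact 95% binomial intervals that take genes or regions as independent, although neighbours can share tags. These leave out the counting error that can move a call across its limit. None of the intervals covers differences between cultures or immunoprecipitations.

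Trimethylation of lysine 4 of histone H3 is placed by SET1 and MLL complexes and gathers on the nucleosomes that flank active or poised transcriptional start sites. Subunits of these complexes recognise unmethylated CG dinucleotides, and most mammalian promoters that are rich in CG carry the mark in many cell types. In mESCs many developmental genes with CG-rich promoters carry H3K4me3 together with the Polycomb mark H3K27me3, while promoters of tissue-specific genes with few CG carry little of it. Broad H3K4me3 domains are known from genes that define the identity of a cell.

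To show what the mark lay on, the 250 bases just upstream of the start of 7 genes are given below, 5′ to 3′ on the strand of the gene in mm9, with every CG in capitals. Fut8, an alpha-1,6-fucosyltransferase, had the marked promoter with the most tags, and Phb2, prohibitin 2 of the inner mitochondrial membrane, ranked high with little input. Ier2, an immediate early gene, lay in the enriched region with the most tags. Pou5f1, Zfp42 and Tdgf1, which encode Oct4, Rex1 and Cripto, were marked although their promoters fell in the intermediate CpG class. Alb, the albumin gene of hepatocytes, was not marked. The stretches are chr12:78339802-78340051 (plus strand) for Fut8, chr6:124662090-124662339 (plus) for Phb2, chr8:87186752-87187001 (minus) for Ier2, chr17:35642732-35642981 (plus) for Pou5f1, chr8:44392364-44392613 (minus) for Zfp42, chr9:110848663-110848912 (minus) for Tdgf1 and chr5:90889665-90889914 (plus) for Alb.
Fut8: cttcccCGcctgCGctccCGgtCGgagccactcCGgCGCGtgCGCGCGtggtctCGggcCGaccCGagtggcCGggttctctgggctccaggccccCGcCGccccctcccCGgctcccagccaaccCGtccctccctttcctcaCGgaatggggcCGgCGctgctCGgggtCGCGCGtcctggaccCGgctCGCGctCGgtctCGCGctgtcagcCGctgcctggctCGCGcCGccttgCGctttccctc
Phb2: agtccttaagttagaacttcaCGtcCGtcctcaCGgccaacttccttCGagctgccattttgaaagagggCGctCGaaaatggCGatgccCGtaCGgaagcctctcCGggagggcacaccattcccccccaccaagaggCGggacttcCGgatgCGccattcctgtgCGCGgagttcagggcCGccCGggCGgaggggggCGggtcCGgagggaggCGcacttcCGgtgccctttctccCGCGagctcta
Ier2: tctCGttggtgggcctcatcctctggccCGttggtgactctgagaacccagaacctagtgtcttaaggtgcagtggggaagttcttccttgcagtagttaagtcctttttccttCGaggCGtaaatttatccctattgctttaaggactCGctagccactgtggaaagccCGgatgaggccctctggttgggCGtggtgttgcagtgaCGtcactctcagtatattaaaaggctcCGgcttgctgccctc
Pou5f1: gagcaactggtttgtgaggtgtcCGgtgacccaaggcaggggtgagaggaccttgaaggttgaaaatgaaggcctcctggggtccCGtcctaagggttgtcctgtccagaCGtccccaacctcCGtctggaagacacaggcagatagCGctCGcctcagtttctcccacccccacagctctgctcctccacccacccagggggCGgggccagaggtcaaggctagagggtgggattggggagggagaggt
Zfp42: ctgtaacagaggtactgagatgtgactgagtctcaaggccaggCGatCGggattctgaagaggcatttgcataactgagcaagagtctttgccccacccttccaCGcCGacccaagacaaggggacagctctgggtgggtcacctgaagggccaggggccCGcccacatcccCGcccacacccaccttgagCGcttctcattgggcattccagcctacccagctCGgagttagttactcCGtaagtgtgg
Tdgf1: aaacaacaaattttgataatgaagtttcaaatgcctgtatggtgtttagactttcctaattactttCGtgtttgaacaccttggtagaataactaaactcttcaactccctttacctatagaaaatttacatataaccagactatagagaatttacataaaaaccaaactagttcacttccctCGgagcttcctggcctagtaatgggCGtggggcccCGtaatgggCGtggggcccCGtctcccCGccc
Alb: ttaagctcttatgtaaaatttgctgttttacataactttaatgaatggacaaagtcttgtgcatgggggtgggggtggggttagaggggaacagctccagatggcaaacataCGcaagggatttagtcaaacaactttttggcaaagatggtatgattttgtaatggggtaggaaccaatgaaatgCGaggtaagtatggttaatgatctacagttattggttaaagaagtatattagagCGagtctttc
These stretches held 36 CG in Fut8, 24 in Phb2, 9 each in Ier2 and Zfp42, 7 each in Pou5f1 and Tdgf1, and 3 in Alb. The upstream stretch does not hold the whole promoter, since the mark was counted over 1 kb on each side of the start. Within 1 kb of these starts lay 376 H3K4me3 tags against 27 input tags for Fut8, 253 against 7 for Phb2, 219 against 12 for Ier2, 136 against 14 for Pou5f1, 101 against 3 for Tdgf1 and 57 against 3 for Zfp42. Alb had 0 H3K4me3 tags against 3 of input, a level without enrichment.

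The H3K4me3 library held 2432377 tags and the input 4248298. Values are given as tags per 1000000 deposited tags of the library (RPM), in which a count of 0 in the H3K4me3 library allows up to 1.23 RPM (3 tags), while the upper end of its exact interval is 1.52 RPM. Tags that repeated the position and strand of another made up 11.3% of the H3K4me3 library and 1.83% of the input. The mark was concentrated, since 44.2% of H3K4me3 tags, against 8.29% of input tags, lay within 1 kb of an annotated start, a zone of 4.15% of the known genome. The 12031 enriched regions held 39.6% of H3K4me3 tags and 2.41% of input tags in 0.580% of the genome.

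The markers of the labelled cell type were read before the rest. Of 25 pluripotency regulators, 21 were marked (84.0%, beside 54.8% of all protein-coding genes), among them Pou5f1, Nanog and Sox2. Of 13 genes of feeder fibroblasts, 4 were marked (30.8%), which were Fbn1, a fibrillin (60 H3K4me3 against 9 input tags), Twist2, a mesenchymal transcription factor (46 against 15), Thy1, a surface glycoprotein (26 against 5), and Col1a2, a type I collagen chain (11 against 4). Col1a2 was not marked at its start with the most wt mESC tags (12 against 5), and another start lay 983 bp from that of Fbn1. Col6a1, Dcn and Acta2, which encode a collagen VI chain, decorin and smooth muscle actin, had 0 H3K4me3 tags. The median level was 39.9 RPM over the pluripotency regulators and 1.23 RPM over the fibroblast genes, and the share of feeder cells in the culture was not tested.

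Of 22216 protein-coding genes, 12177 had marked promoters in wt mESCs (54.8%, interval 54.2 to 55.5), and 42.3% did where at least 8-fold over input was asked in place of 4-fold. The level had a median of 32.5 RPM at marked promoters and 13.2 RPM over all genes. Of the 10039 genes that were not marked, 8637 had fewer than 10 tags, and 3623 of these had no tag at all. A further 1171 genes had tags enough but stood between 2-fold and 4-fold above input, so part of the unmarked set carried a weak signal. Just inside the limit stood Pik3ip1 and Lix1l with 38 H3K4me3 against 16 input tags, and just outside it stood Lhx1, a homeobox gene, and Dmrt1, a gonadal transcription factor, with 31 against 13.

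The share of marked promoters followed their CG content closely. Of 13177 promoters of the high CpG class (a 500-bp stretch with at least 55% GC and at least 0.6 of the CG expected from base composition), 88.1% were marked (87.6 to 88.7). Of 3881 intermediate promoters 13.2% were marked (12.2 to 14.3), and of 5158 low ones (no stretch at 0.4 of expected) 0.989% (0.737 to 1.30). The shares of the lower classes depended on the limits, ranging from 7.09% at 8-fold to 38.2% with CpG limits of 0.75 and 0.5 in the intermediate class and from 0.349% to 2.00% in the low class under the same settings. The median level was 30.4 RPM in the high class, 0.82 RPM in the intermediate class and 0.41 RPM, which is 1 tag, in the low class. Input levels also moved with CG content, with medians of 10 tags in the high, 5 in the intermediate and 3 in the low class, and the part of base composition in tag recovery was not tested.

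The same order held over the plain number of CG within 1 kb of the start. Promoters with under 20 CG were marked in 0.383% of 4435 cases, those with 20 to 39 in 7.02% of 3491, and those with 40 to 79 in 66.2% of 5438. The share went on to 92.2% of 5227 promoters with at least 80 but under 120 CG, 95.9% of 2493 with at least 120 but under 160, and 97.6% of 1132 with more. The strength of the mark moved in the same order, from a median of 0 RPM in the lowest group to 14.8 RPM at 40 to 79 CG and 54.3 RPM in the highest. The highest group, with 1132 genes, also held 25 of the 47 genes whose starts lay within 1 kb of a region of at least 4 kb.

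A small set of genes broke this order. The promoter of Zscan10, a zinc finger gene of pluripotent cells, was of the low CpG class and had 91 H3K4me3 against 8 input tags (37.4 RPM, interval 30.1 to 45.9). Fbxo15, an F-box gene used as a reporter of pluripotency, was likewise of the low class and had 52 against 8. In the wt PILEC library Zscan10 stood at 1.70 RPM and Fbxo15 at 1.01 RPM. Of the 51 marked promoters of the low class, 37 (72.5%) were at least 4-fold lower in wt PILECs, beside 514 of all 12177 marked promoters (4.22%). The marked promoters were chosen in the mESC library, so a lower value elsewhere is partly given by that choice.

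Among the intermediate class, Pou5f1 had the most tags (136), and Trp53, which encodes the tumor suppressor p53, had 106 against 7 of input. Wrap53 begins nearby on the other strand and had 101 against 7, so the tags of Trp53 cannot be told apart from those of this neighbour. Txnip, a thioredoxin-binding protein, had 113 against 16. Trp53 stood at 43.6 RPM in wt mESCs and 74.2 RPM in wt PILECs, whereas Pou5f1 stood at 55.9 and 3.68 RPM. Trp53 lies on chromosome 11, where marked promoters as a whole stood higher in wt PILECs, with a median log2 difference of 0.30, beside −0.03 over all marked promoters and −0.28 on chromosome 8.

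In the other direction, 1564 promoters of the high CpG class were not marked. Of these 557 had fewer than 10 tags, 110 had none, and 885 stood between 2-fold and 4-fold above input, so the mark was weak rather than undetected in most. The CG-richest of them were genes of several kinds. Pou3f3, a neural POU factor, had 12 H3K4me3 against 13 input tags, and Lmx1b, a LIM homeobox gene of limb and brain, had 14 against 16. Six2, a homeobox gene of kidney progenitors, had 30 against 14, and Runx3, a Runt factor of blood and neurons, had 42 against 20. Grm4, a glutamate receptor, had 33 against 16, and Kcnk12, a potassium channel subunit, had 50 against 26. Between wt mESCs and wt PILECs these went in different directions. Pou3f3 stood at 4.93 and 36.5 RPM and Lmx1b at 5.76 and 10.4 RPM, whereas Six2 stood at 12.3 and 8.95 RPM and Runx3 at 17.3 and 8.10 RPM. Grm4 (13.6 and 16.4 RPM) and Kcnk12 (20.6 and 19.02 RPM) differed less.

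**Figure D1:**
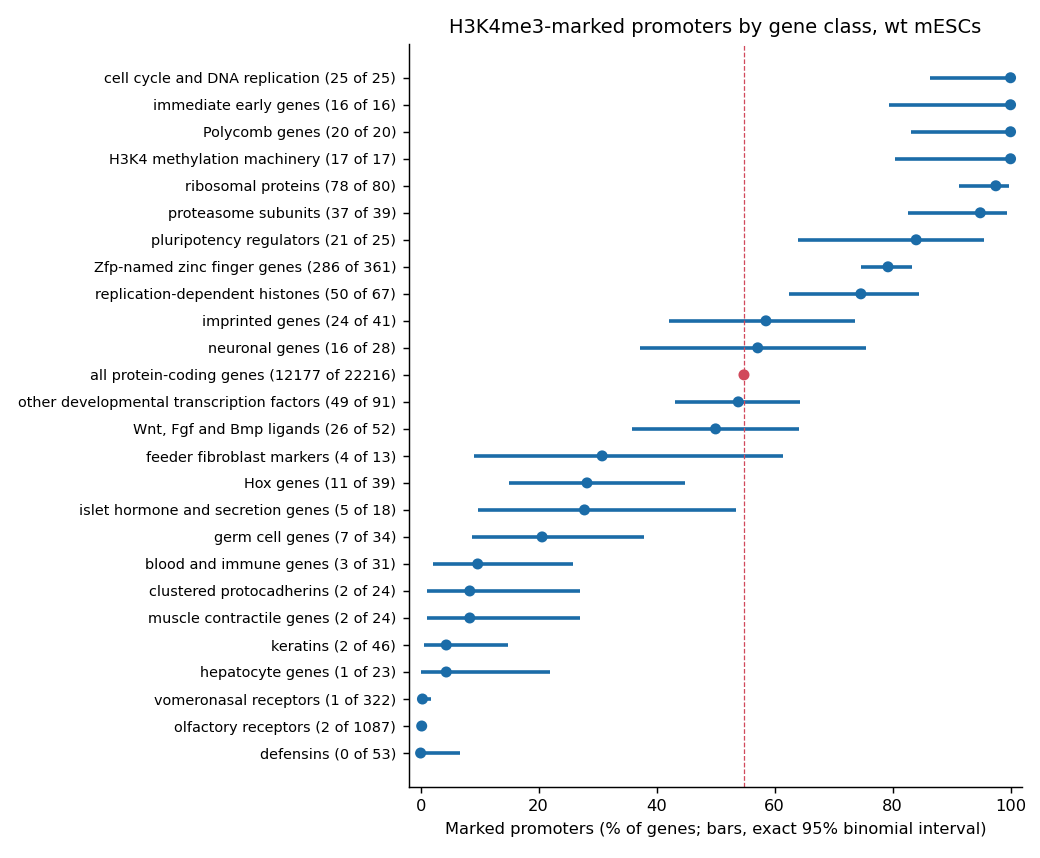
Share of marked promoters (% of genes, horizontal axis) in each gene class of wt mESCs, shown as points with exact 95% binomial intervals as lines, and the number marked of the number placed beside each name. Cell cycle, H3K4 methylation, Polycomb and ribosomal protein genes stand at or near 100%, Hox genes at 28.2% and receptors of smell near 0%, around the dashed line of all protein-coding genes at 54.8%.

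Short motifs were counted in the 300 bases from 250 before the start to 49 after it, and the shares below describe these letters and not bound factors. TATAAA on the strand of the gene was found in 3.11% of marked and 14.8% of unmarked promoters, beside 8.41% of all. Within the high CpG class it was found in 3.08% of marked and 6.07% of unmarked promoters, and within the intermediate class in 3.51% and 12.6%. GGGCGG, the GC box, read on both strands, was found in 71.1% of marked and 17.2% of unmarked promoters (46.7% of all), in 72.7% against 54.4% within the high CpG class and in 38.4% against 16.3% within the intermediate class. This motif contains a CG, so its share moves with CG content.

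CCGGAAGT, the core of Ets sites, was found on either strand in 8.50% of marked and 0.807% of unmarked promoters, beside 5.02% of all, and within the high CpG class in 8.71% against 1.34% and the intermediate class in 4.68% against 1.25%. AAGATGGC, the letters of the YY1 motif, were found in 5.01% against 1.82% (3.57% of all), and within the high CpG class in 5.14% against 0.895%, but within the intermediate class in 2.53% against 2.85%, where the intervals overlap. CCAAT, which has no CG, was found on either strand in 35.0% of marked and 37.1% of unmarked promoters, beside 35.99% of all. Within the high CpG class the shares were 34.4% and 33.4%, where the intervals overlap, and within the intermediate class 47.4% (43.0 to 51.8) and 36.05% (34.4 to 37.7). CACGTG, the E-box of Myc and USF proteins, was found in 10.2% and 4.84% (7.81% of all), and within the high CpG class in 10.4% and 9.08% and the intermediate class in 7.80% and 6.12%, where the intervals overlap. None of the motifs searched contains another.

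Around marked starts the mark formed 2 unequal shoulders. Averaged over 12177 marked promoters, H3K4me3 reached 42.0 RPM per kb at 175 bp downstream of the start, fell to 13.8 RPM per kb at 75 bp upstream, and rose again to 17.6 RPM per kb at 275 bp upstream. Far from the start the level was 0.659 RPM per kb. Of the tags within 1 kb of marked starts, 66.4% lay downstream, and 9617 of the 12177 genes had more tags downstream than upstream. Input at the same starts had a low hump of 2.05 RPM per kb against 0.599 far away, so the ratio to input at the start is taken against an elevated input.

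The upstream shoulder was high where another gene began nearby on the other strand. For 2482 marked genes with such a start within 1 kb upstream, the upstream maximum was 31.6 RPM per kb, and 52.1% of tags lay downstream of the start. For the 9695 others the upstream maximum was 14.7 RPM per kb, and 71.4% of tags lay downstream. The value was 70.8% over the 3351 marked genes with only 1 annotated start. Genes with a divergent neighbour were also marked more often, in 90.7% of 2737 (89.5 to 91.7) against 49.8% of 19479 (49.1 to 50.5). Of the former 93.1% had promoters of the high CpG class and of the latter 54.6%. Within that class the shares were 95.8% (94.99 to 96.6) and 86.3% (85.6 to 86.9), and tags of the neighbour can fall in the same window of 1 kb.

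**Figure D2:**
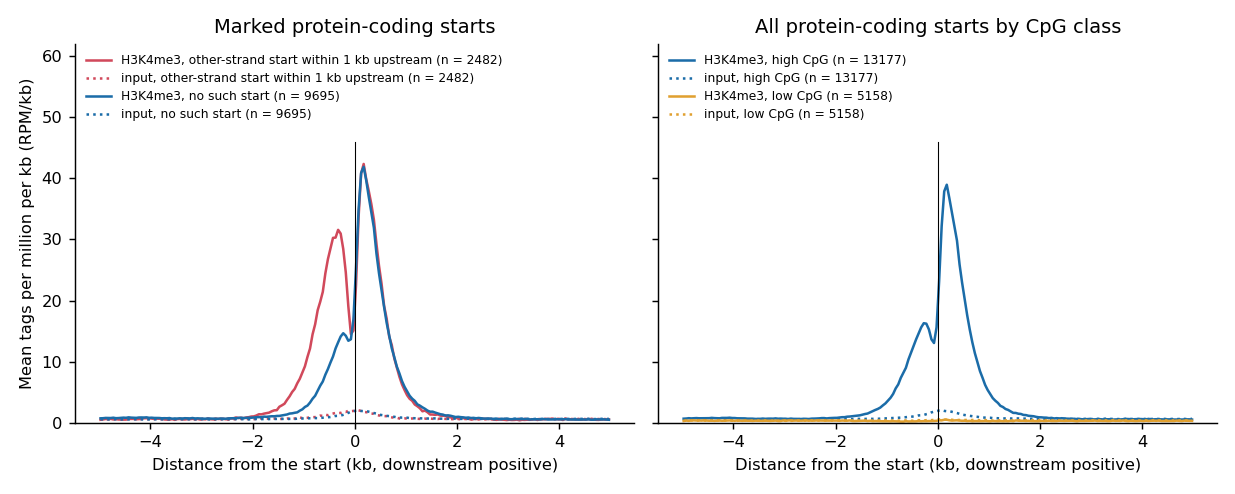
Mean level (RPM per kb, vertical axis) of H3K4me3 (solid lines) and input (dotted lines) against the distance from the start (kb, downstream positive) in wt mESCs, for marked starts with and without a start on the other strand upstream (left) and for all starts of the high and low CpG classes (right). The downstream shoulder at 175 bp is the highest point of each solid curve except that of the flat low class, and the upstream shoulder reaches 31.6 RPM per kb where another gene begins there.

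Promoters were ranked by tags over protein-coding genes, with 1 gene kept per enriched region. The strongest marked promoter was that of Fut8, the fucosyltransferase that adds core fucose to N-glycans, on chromosome 12. It had 376 H3K4me3 tags against 27 of input (154.6 RPM, interval 139 to 171), a log2 ratio of 4.60 (4.04 to 5.23). Lphn1, an adhesion receptor that binds latrotoxin, followed with 326 against 21, Cog8, a subunit of a Golgi tethering complex, with 316 against 22, and Ing2, a PHD finger protein that reads H3K4me3, with 294 against 26. The ranks below Fut8 were close, and the intervals of Lphn1 (120 to 149 RPM) and Cog8 (116 to 145) overlap almost whole. At 8 of the 12 marked promoters with the most tags in this ranking, another start on the other strand lay within 1 kb upstream. Cog8 and Ing2 were among these 8 but Fut8 and Lphn1 were not, and part of the tags of the 8 can belong to the neighbour.

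Also among the 12 were Mau2, a cohesin loader (282 against 18), Pcid2, a factor of mRNA export (281 against 31), and Hnrnpf, an RNA-binding protein (270 against 11). Further ones were Cox4nb (268 against 15), Rbmxrt, a retrogene of an RNA-binding protein (260 against 10), Plekhj1 (256 against 25) and Irf2bp2, a transcriptional corepressor (255 against 27). All 12 were of the high CpG class. Gm10800 and Gm10801, a pair of predicted genes on chromosome 2, had more tags (4894 and 4129) but also 13293 and 9819 of input, and were not marked. Sfi1, a gene of the centrosome, had 363 tags, more than Lphn1, but 277 of input, and was not marked either.

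Of these 12 promoters, 9 lay on chromosome 8, which holds 4.84% of protein-coding genes, and so did 39 of the top 100. Marked promoters on chromosome 8 had a median of 44.4 RPM and those of the other autosomes 32.9 RPM, but the input medians were 3.30 and 2.35 RPM, so the median log2 ratios of 3.66 and 3.64 were nearly the same. On the X chromosome the medians were 14.4 RPM of H3K4me3 and 0.942 RPM of input, with a log2 ratio of 3.61. Levels in RPM between chromosomes thus moved with the input, and the number of copies of each chromosome was not tested. Without chromosome 8, the leading promoters after Fut8 and Hnrnpf were Plekhj1, Phb2 (253 against 7), Ppp2r5a, a regulatory subunit of protein phosphatase 2A (247 against 21), Fubp1 (244 against 17) and Ncl, which encodes nucleolin (244 against 26). Of these, Plekhj1, Phb2, Fubp1 and Ncl have a start on the other strand within 1 kb upstream, whose tags can fall in the same window.

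Ranked by the ratio to input in place of the level, none of the first 12 promoters lay on chromosome 8. Tcfe3, a basic helix-loop-helix factor of ES cells and lysosomes, had 84 tags against 0, Trappc2, a vesicle trafficking subunit, had 57 against 0, and Trap1, a mitochondrial chaperone, had 107 against 1. Tcfe3 and Trappc2 lie on the X chromosome. Their places in this order rest on 0 or 1 input tags, and the interval of the log2 ratio of Trap1 ran from 5.04 to 12.9.

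Enriched regions were short. Their median length was 1000 bp, the quartiles were 800 and 1600 bp, and the longest were 6400 bp. A region held a median of 70 H3K4me3 and 8 input tags. Of the 12031 regions, 10861 (90.3%) reached within 1 kb of an annotated start, 359 (2.98%) lay in exons, 161 (1.34%) in introns and 650 (5.40%) between genes. A total of 1101 regions held the starts of at least 2 protein-coding genes. Regions had a median of 0.745 of the CG expected from their base composition, and the genome had 0.191.

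Length and tags moved together over the 12031 regions (a Spearman correlation of 0.801, a description, since a region with more tags passes the window limit over a longer stretch). The 49 regions of at least 4 kb were a small group with a median of 4400 bp and 275 tags. They were not denser than others, with a median of 24.9 RPM per kb beside 25.7 over all regions. Their CG content was 0.705 of expectation, also near that of the rest. Broad regions were thus longer at a like density.

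**Figure D3:**
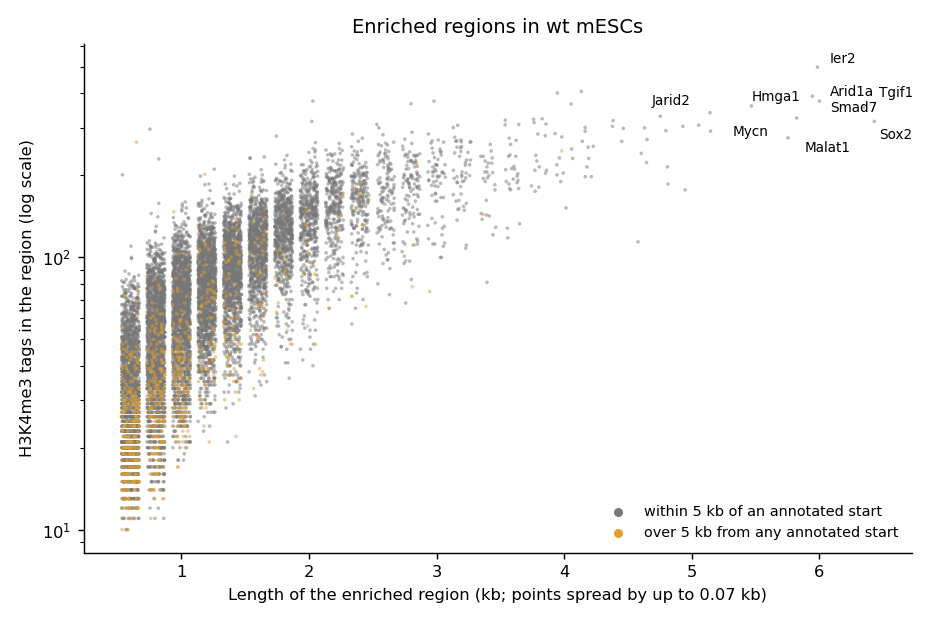
H3K4me3 tags (vertical axis, log scale) against the length in kb of each of the 12031 enriched regions of wt mESCs, in grey within 5 kb of an annotated start and in orange beyond. Most regions are under 2 kb, most orange points lie low among them, and Ier2 holds the most tags.

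The 12 longest regions ran from 5000 to 6400 bp. Tgif1, a homeobox repressor of Smad signalling, had a region of 6400 bp (chr17:71197601-71204000) with 355 H3K4me3 against 33 input tags. Sox2, the HMG-box factor that works with Oct4, had one of 6400 bp (chr3:34547401-34553800) with 316 against 35. Smad7, an inhibitory Smad, had 6000 bp (chr18:75526001-75532000) with 375 against 30, and Arid1a, a subunit of the BAF remodelling complex, had 6000 bp (chr4:133307401-133313400) with 391 against 30. The region at Smad7 also held the start of the noncoding gene RP24-263P17.1.

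Ier2 had the enriched region with the most tags, 6000 bp (chr8:87183801-87189800) with 500 tags against 24, or 205.6 RPM (188 to 224). Its region ran 3049 bp upstream and 2950 bp downstream of the start, and also held the start of the noncoding gene Gm2529. The upstream stretch of 250 bases printed above held 9 CG, 0.525 of the number expected from its base composition. The whole region held 46.7 CG per kb, 0.643 of the number expected. Mycn, an oncogene of the Myc family, had 5800 bp (chr12:12943801-12949600) with 325 against 27, and Malat1, a nuclear noncoding RNA, had 5800 bp (chr19:5797801-5803600) with 275 against 31. Malat1 was low in CG for such a region, at 0.447 of expectation.

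Hmga1, a chromatin protein of proliferating cells, had 5400 bp (chr17:27691201-27696600) with 360 against 25, and Jarid2, a partner of Polycomb complex PRC2, had 5200 bp (chr13:44824801-44830000) with 340 against 15. Zbtb7a, a zinc finger repressor, had 5200 bp with 291 against 32, a region that held the starts of both Ctbp2, a corepressor, and Fgfr2, a receptor of Fgf ligands, had 5000 bp with 306 against 30, and Trim8, a ubiquitin ligase, had 5000 bp with 303 against 43. Another region of 5000 bp, with the starts of Zfp13 and Zscan10 (177 against 22), tied in length with the last 2 and had fewer tags. Each of the 12 longest regions lay at an annotated start. Other regions with many tags were shorter, such as that of Lphn1 (4200 bp, 407 tags against 39), Ing1, which reads H3K4me3 like Ing2 (4000 bp, 402 against 43), Ing2 (3000 bp, 375 against 30), Fut8 (2000 bp, 375 against 29) and Ptma, prothymosin alpha (2800 bp, 367 against 18). Fut8 was the densest of these at 77.1 RPM per kb, and Ier2 stood at 34.3. The region at Lphn1 also held the start of the noncoding gene Gm16994, and that at Ing2 the start of AA386476. Ier2, Lphn1, Ing1 and Ing2 lie on chromosome 8, where input was higher. Divided by the ratio of the input medians given above (1.4, a scaling chosen after the values were seen), the region at Ier2 has 357.1 tags. That is fewer than at Arid1a, Smad7, Fut8, Ptma, Trim71 (366 tags) and Hmga1. The own input of the Ier2 region was 24 tags, beside 30 each at Arid1a and Smad7, also of 6000 bp. Its log2 ratio to input was 5.13, the highest of the 8 regions with the most tags, with Ptma next at 5.08.

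Genes near a region of at least 4 kb made up 0.212% of protein-coding genes (47 of 22216). Of the 25 pluripotency regulators, 4 did, which were Sox2, Klf4, Zfp42 and Tdgf1. Of the other 24 gene classes, Polycomb genes (Jarid2) and immediate early genes (Ier2) had 1 gene each and the Zfp-named genes had 2 (Zfp13, and Zfp42 again), and none of the others had any. Length depends on depth, and with the H3K4me3 library thinned to 50% of its tags 12 regions reached 4 kb, whereas joining over gaps of up to 1000 bp gave 98 and a Poisson p of 1e-07 for the windows gave 28.

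Set beside wt PILECs, most of the 49 broad regions stood within 4-fold, and a few were far lower. Median log2 differences of PILEC to mESC were −0.47 over the 49 regions and −0.22 over all 12031, and 5 of the 49 (10.2%) were at least 4-fold lower, beside 1123 of all (9.33%). Those 5 included the regions of Tdgf1, at 82.6 RPM in wt mESCs and 2.61 in wt PILECs, Zfp42, at 76.5 and 4.37, and the pair Zfp13 and Zscan10, at 72.8 and 10.7. Hmga1 was also among them, at 148 and 32.3 RPM. Sox2 stood at 129.9 and 65.5 RPM and Jarid2 at 139.8 and 100.9, both within 4-fold. Since the regions were called in the mESC library, lower values elsewhere are partly given by the choice.

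The fifth of them lay between genes (chr6:30122601-30126600, 4000 bp) with 250 H3K4me3 against 36 input tags, 102.8 RPM in wt mESCs and 7.51 RPM in wt PILECs. The nearest annotated start, 2864 bp away, is that of Mir183, of the microRNA cluster Mir183, Mir96 and Mir182, which is known from sensory cells. The other broad region away from any start (chr8:46020201-46024200, 4000 bp, 246 tags against 20) lay 11362 bp from Fat1, an atypical cadherin, and stood at 101.1 RPM in wt mESCs and 100.1 in wt PILECs.

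Regions more than 5 kb from any annotated start numbered 765 (6.36%, interval 5.93 to 6.81), and 423 with the H3K4me3 library thinned to 50% or 324 at a minimum length of 1000 bp. They were weak, with a median of 33 tags, and short, with a median of 800 bp. The one with the most tags (chr19:61275401-61276000, 600 bp) had 265 against 35, but these lay on 109 distinct positions, since many tags repeated a position. The 246 tags of the region near Fat1, next in this order, lay on 218.

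All but 1 of these 8 lay between genes, and the exception lay in an exon of Aars. The region 14969 bp from the start of Chd2, a chromatin remodeller, had 220 tags against 15 (chr7:80701601-80704400). That 7960 bp from Rnf4, a SUMO-targeted ubiquitin ligase, had 185 against 11 (chr5:34678001-34680400), and that 10664 bp from Arhgap5, an activator of GTPase activity, had 180 against 9 (chr12:53604001-53606400). Regions on chromosome 13 (chr13:65341601-65343800, 171 against 17) and chromosome 17 (chr17:46993201-46995600, 170 against 10) completed the set. No transcript was measured in these libraries, so whether they are starts of transcripts missing from the annotation was not tested.

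Regions away from starts were lower in wt PILECs more often than those at starts, and those in exons most often. The exonic regions, 359 in number, had a median of 30 tags and 0.713 of expected CG, a CG content close to that of promoters. The strongest of those over 5 kb from any start lay in Aars, which encodes alanyl-tRNA synthetase (chr8:113580201-113581400). It had 202 H3K4me3 against 16 input tags, 83.0 RPM in wt mESCs and 35.4 in wt PILECs. Aars lies on chromosome 8, where input was higher. An exon of Prdm13, a neural zinc finger gene (chr4:21605401-21607200), had 90 against 16, with 37.0 and 7.35 RPM in the 2 states. An exon of Scrt2, a Snail-related neural repressor (chr2:151918401-151919800), had 84 against 21, with 34.5 and 1.54 RPM. Over all 359, the median log2 difference of PILEC to mESC was −2.87 and 224 (62.4%) were at least 4-fold lower, whereas over the 10861 regions at starts it was −0.17 and 5.93% were. The 161 intronic regions (−1.22 and 35.4%) and the 650 between genes (−0.79 and 30.5%) stood between these, and 9.33% of all regions were at least 4-fold lower. Exonic regions had fewer tags than regions at starts (medians of 30 and 75), all regions were called in the mESC library, and the part of that choice in the difference was not tested.

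Turning to gene classes, the 25 pluripotency regulators stood above the median of all genes in level and ratio. Their median log2 ratio was 3.95, beside 2.50 over all protein-coding genes. Most tags lay at Klf2, a Krüppel-like factor (175 against 16), Utf1, a chromatin factor of ES cells (165 against 15), Klf5, of the same family as Klf2 (157 against 9), and Fgf4, a growth factor controlled by Oct4 and Sox2 (151 against 13). Klf2 lies on chromosome 8, where levels were higher along with input, so its first place is not secure. Sox2 had 142 against 19 within 1 kb of its start, of the 316 in its region, and Pou5f1 had 136 against 14. Sall4, a zinc finger partner of Oct4, had 132 against 3 and so the highest ratio to input of these, which rests on 3 input tags. Of its 132 tags 94 lay upstream, where the noncoding gene Gm14261 begins 897 bp away, so part of them can belong to this neighbour.

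Lin28a, an RNA-binding protein that blocks let-7, had 119 against 5, Esrrb, an orphan nuclear receptor, 114 against 12, Klf4 105 against 12, Tdgf1 101 against 3, and Nanog, the homeobox factor of naive cells, 97 against 10. The mark was lower at Tcfcp2l1, a Grainyhead-like factor (66 against 15), Zfp42 (57 against 3), Tbx3, a T-box factor (53 against 3), and Nr5a2, a nuclear receptor (52 against 9). Other annotated starts lay 694 bp from that of Lin28a and 503 bp from that of Tbx3. Zfp42 shows how a count near the start can miss the breadth of the mark, since its region of 4800 bp, which reached 4362 bp downstream, held 186 tags. Below these stood Nr0b1 (38 against 9), Dnmt3l, a cofactor of DNA methylation (35 against 10), Dppa4 (34 against 4) and Dppa2 (16 against 2), all marked.

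The 4 that were not marked were Lefty1, a Nodal inhibitor (33 against 14), Dppa5a (17 against 7), Tet1, a 5-methylcytosine oxidase (13 against 10), and Prdm14, a PR-domain repressor (13 against 9). Lefty1 and Dppa5a stood near the fold limit, with log2 ratios of 2.04 (1.10 to 3.06) and 2.08 (0.741 to 3.60) before the added tag, whereas the intervals of Tet1 (−0.12 to 2.53) and Prdm14 (−0.0034 to 2.74) reach below 0. At the start of Lefty1 with the most tags in the wt mESC library itself the counts were 38 against 13, past the limit. The start first chosen for Lefty1 lay in an enriched region of 1400 bp. At the start chosen for Tet1 the wt PILEC library had 15.3 RPM against 5.34 here. Of the 21 marked pluripotency regulators, 13 were at least 4-fold lower in wt PILECs, beside 4.22% of all marked promoters, and the median of the 25 genes was 3.68 RPM there. Of the 25 genes, 21 had an enriched region at the start, which include the unmarked Lefty1 but not the marked Dppa2. These regions had a median of 2200 bp, beside 1200 bp over all genes with a region. Of the 21 regions, 16 held the start itself, with a median length of 2500 bp. Those 16 ran a median of 2379 bp downstream of the start and 281 bp upstream.

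**Figure D4:**
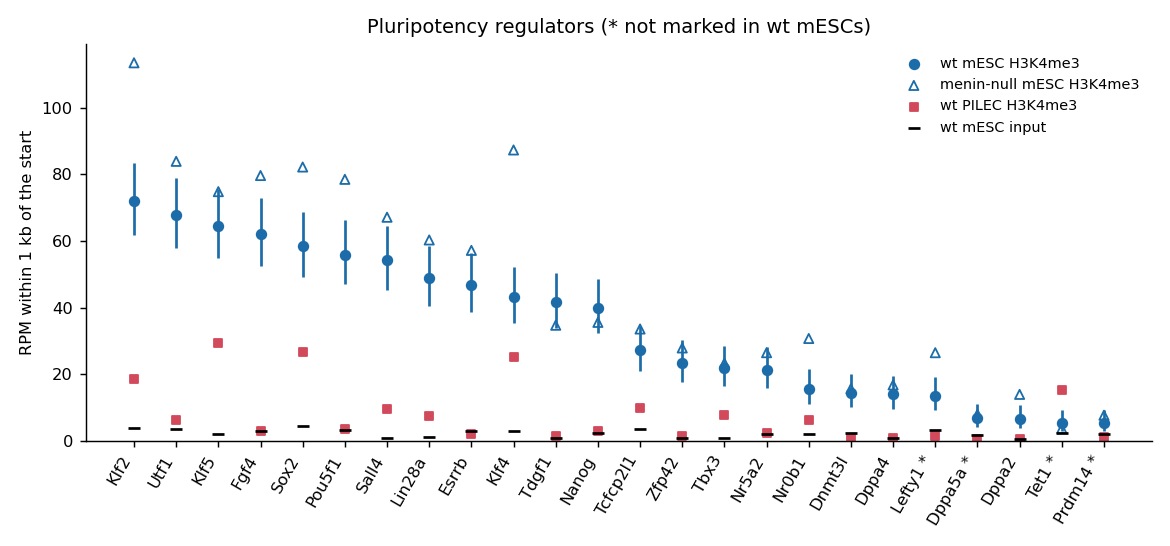
Level (RPM within 1 kb of the start, vertical axis) at 24 of the 25 pluripotency regulators, with wt mESC H3K4me3 as filled circles with exact 95% Poisson intervals, wt mESC input as black dashes, wt PILEC H3K4me3 as red squares and menin-null mESC H3K4me3 as open triangles. Klf2, on chromosome 8 where input was higher, stands highest in wt mESCs at 71.9 RPM. Tet1 is the gene with a higher square than circle, and stars mark the 4 genes that were not marked.

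Genes of the ribosome, the proteasome and the cell cycle were marked with few exceptions. Of 80 ribosomal protein genes, 78 were marked (97.5%, beside 54.8% of all protein-coding genes), with a median of 58.0 RPM and a median log2 ratio of 4.49, the highest of the classes. Nearly all had promoters of the high CpG class, in which 77 of 78 were marked, beside 88.1% of all promoters of that class. Rpl12 had 237 tags against 10, Rps14 222 against 6 and Rpl11 219 against 9. The start of Lrsam1 lay 652 bp from that of Rpl12. Rpl3l (5 against 7) and Rpl10l (21 against 9) were not marked, and both are copies with expression limited to muscle or testis. Reads of close copies cannot be placed with certainty, and the deposited tags hold unique locations only.

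Of 39 proteasome genes, 37 were marked (36 of the 37 in the high CpG class, beside 88.1% of that class). Psma7 had 243 tags against 18, of which 126 lay upstream, toward the start of Ss18l1 76 bp away. Those without the mark were Psmb11, the subunit of the thymus (9 against 16), and Psmb9, an interferon-induced subunit (42 against 19). All 25 cell cycle and replication genes, each of the high CpG class, were marked, with a median of 42.3 RPM. The interval of that share, 86.3 to 100%, holds the 88.1% of all promoters of the class. Among them were Mcm5, of the replicative helicase (193 against 9), and Aurka, a mitotic kinase (167 against 13, with the start of Cstf1 175 bp away). Mcm5 lies on chromosome 8, where input was higher. Of 67 replication-dependent histone genes, 50 were marked (74.6%), beside 54.8% of all protein-coding genes. Promoters of the high CpG class made up 97.0% of them, and 49 of these 65 were marked (75.4%), beside 88.1% of that class. The median was 9.04 RPM over all 67 and 10.9 RPM over the 50. Histone genes are small and clustered, so windows of 1 kb can hold parts of their neighbours. The 67 genes had a median of 5 input tags, beside 10 over the high CpG class. Of the 67, 6 had no H3K4me3 tag, and Hist1h2bq had 0 tags in both libraries. Deposited tags hold unique locations only, and the part of tag recovery in these values was not tested.

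Regulators of chromatin had the mark as well, and the genes of the 3 classes that follow all had promoters of the high CpG class, in which 88.1% of all protein-coding promoters were marked. All 17 genes of the H3K4 methylation machinery were marked, with a median of 50.2 RPM, led by Mll3 (184 against 16, with 85 of its tags upstream and another start 365 bp away), the core subunit Wdr5 (181 against 17) and the demethylase Kdm5b (180 against 15). Men1, the gene of menin, had 65 against 13, and all 20 Polycomb genes were marked, with Ezh2, the H3K27 methyltransferase, at 175 against 15. All 16 immediate early genes were marked, from Ier2 (219 against 12) to Egr3, an early growth response factor (23 against 8). Their regions had a median of 1800 bp, longer than the 1200 bp over all genes.

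Among developmental regulators fewer promoters were marked than in the high CpG class as a whole. Of 39 Hox genes, 35 had promoters of the high CpG class, and 11 of these 35 were marked (31.4%), beside 88.1% of all promoters of that class. Their median log2 ratio within the class was 1.58, beside 3.53. Hoxc13, at the posterior end of HoxC, had 71 H3K4me3 against 11 input tags, Hoxd1, at the anterior end of HoxD, 70 against 11, and Hoxa4 59 against 6. Hoxa5, Hoxa7, Hoxa13, Hoxc4, Hoxd8, Hoxd10 and Hoxd13 were also marked, with 10 to 40 tags. None of the 10 HoxB genes was marked, and Hoxb9 came nearest with 28 against 12 (31 against 12, past the limit, at the start with the most wt mESC tags). The start of Hoxb9 lay in an enriched region of 1600 bp, for which the limit was 3-fold over input. Another annotated gene began 283 bp from the start of Hoxc13 and 84 bp from that of Hoxd1, so the tags there cannot be told apart between neighbours.

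**Figure D5:**
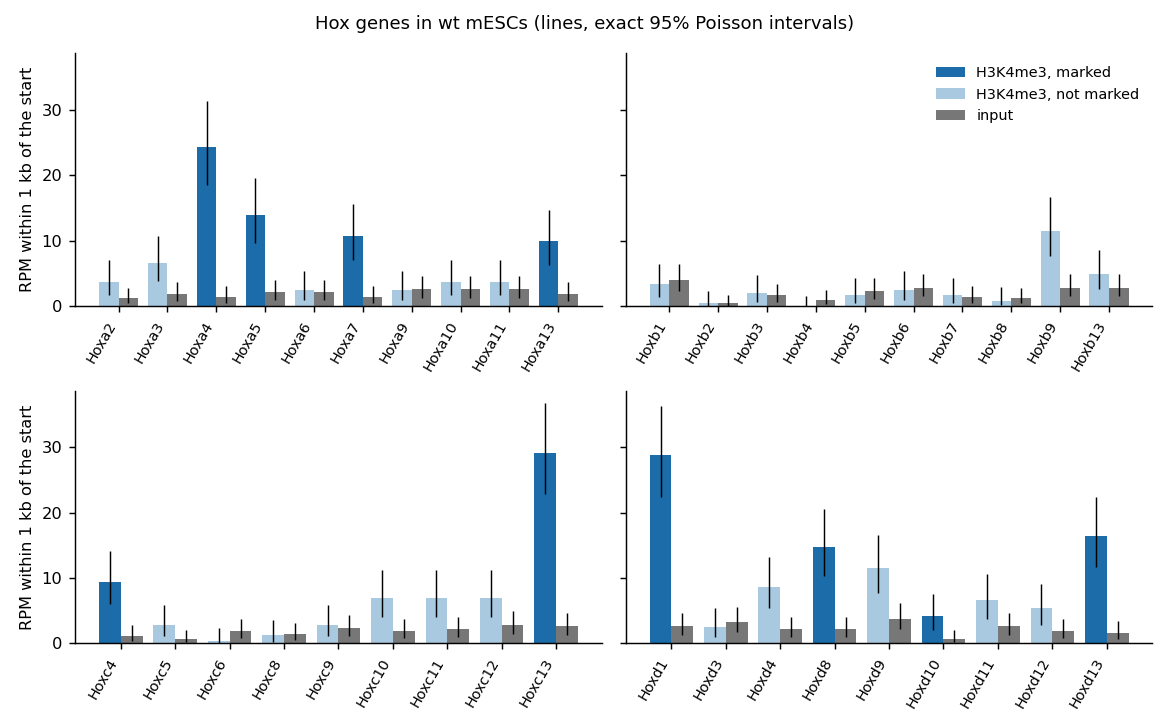
Level (RPM within 1 kb of the start, vertical axis, with exact 95% Poisson intervals as lines) of H3K4me3 (dark blue where marked, light blue where not) and input (grey) at 38 of the 39 Hox genes of wt mESCs, 1 panel for each cluster. Hoxc13 and Hoxd1 stand highest of those shown, and no HoxB gene is marked.

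Of 91 other developmental transcription factor genes, 49 were marked (53.8%), all of them among the 87 with promoters of the high CpG class. The median log2 ratio of the 87 was 2.18, close to the limit of 2 that the call sets, so many sat on either side of it. Pou4f1, a POU factor of sensory neurons, had 80 against 7. Of 52 genes of Wnt, Fgf and Bmp ligands, 26 were marked and 26 were not, near the 54.8% marked of all protein-coding genes, and 25 of the 42 in the high CpG class were (59.5%), beside 88.1% of that class. Nodal, the Tgf-beta ligand of the early embryo, had 80 against 6 and stood at 32.9 RPM in wt mESCs and 5.01 in wt PILECs. Fgf20, on chromosome 8 where input was higher, had 156 against 20. The start of Efha2 lay 280 bp away, so the tags of Fgf20 cannot be told apart from those of its neighbour.

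Imprinted genes were marked in 24 of 41 cases (58.5%), near the 54.8% of all protein-coding genes. Within the high CpG class 21 of 32 were marked (65.6%), below the 88.1% of all promoters of that class. Ube3a, the ubiquitin ligase of Angelman syndrome, had 147 against 10, Gnas, a G protein subunit, 129 against 15, and Meg3, a maternally expressed noncoding RNA, 64 against 3. H19, a noncoding RNA beside Igf2, had 4 against 8, and Rtl1, a retrotransposon-derived gene, 0 against 8. Mest, an imprinted hydrolase gene, had 6 against 9 at the start chosen by the menin-null mESC library, but 58 against 8 at another of its 11 annotated starts, the one with the most wt mESC tags, where menin-null mESCs had 8 tags (2.27 RPM against 23.8). With starts chosen by the wt mESC library, 26 of the 41 were marked, and those added were Mest and Nnat (21 against 5). The tags do not separate the parental copies, and a mark on 1 copy only gives a smaller count.

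Genes of differentiated tissues mostly lacked the mark. Of 23 hepatocyte genes 1 was marked, of 24 muscle contractile genes 2, of 31 blood and immune genes 3, of 46 keratins 2, and of 18 islet hormone and secretion genes 5, beside the 54.8% of all genes. Among the marked, Apoh of hepatocytes (114 against 18) has the start of Prkca 294 bp away, and Myl4 of muscle (95 against 7) has that of Cdc27 43 bp away, which are genes of wide use. Chga, chromogranin A of endocrine granules, had 37 against 10, and Krt19, a simple epithelial keratin, 28 against 5.

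Of 28 neuronal genes, 16 were marked (57.1%), near the 54.8% of all protein-coding genes. Of these 28 genes 21 had promoters of the high CpG class, and 15 of the 21 were marked (71.4%, beside 88.1% of that class). Of this class were also 2 of the 23 hepatocyte genes. Rbfox3, the neuronal antigen NeuN, had 73 against 23. Of 34 germ cell genes, 7 were marked (20.6%), beside 54.8% of all protein-coding genes. All 7 were among the 20 with promoters of the high CpG class (35.0%, beside 88.1% of that class). Of those 7, 5 were at least 4-fold lower in wt PILECs, beside 4.22% of all marked promoters. The 7 were called in the mESC library, and 1 of them, Sycp3 of the synaptonemal complex (21 against 8), was not marked at its start with the most wt mESC tags (23 against 10). Gdf9, an oocyte growth factor, had 128 against 13 with the start of Uqcrq, a subunit of the respiratory chain, 192 bp away. Dmc1, a meiotic recombinase, had 39 against 6.

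Large gene families at the low end had nearly no promoters called marked, beside the 54.8% of all protein-coding genes. Of 1087 olfactory receptor genes, 2 were marked (0.184%, interval 0.0223 to 0.663), which were Olfr94 (45 against 13) and Olfr658 (11 against 2). Of 322 vomeronasal receptor genes 1 was, Vmn1r90 (41 against 6). Of 53 defensin genes 0 were, which allows up to 5.66% (3 genes), while the upper end of the exact interval is 6.72%. Of 24 clustered protocadherin genes 2 were marked. Only 0.368% of olfactory receptor genes had promoters of the high CpG class. Median input was 2 tags at olfactory receptor, 1 at vomeronasal receptor and 3 at defensin genes, beside 8 over all protein-coding genes. Deposited tags hold unique locations only, and the part of tag recovery in these low shares was not tested. Zinc finger genes with Zfp names, many of them repressors of retrotransposons, were marked in 286 of 361 cases (79.2%), above the share of all protein-coding genes, and in 235 of 243 cases within the high CpG class (96.7%, beside 88.1%).

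Noncoding genes split by annotation. Of 1272 lincRNA genes 56.7% were marked (53.9 to 59.4), close to protein-coding genes, and of 2560 genes annotated as processed transcripts 14.3% were (13.0 to 15.8). Within the high CpG class the shares were 82.9% and 69.4%, a smaller gap. Tags of a neighbouring gene can fall in the same window of 1 kb, and their part in these shares was not tested. Gas5, a host of small nucleolar RNAs, had 215 against 13 in a region of 4400 bp that also held the start of Zbtb37, and Gm14261, which begins near Sall4, had 216 against 7.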

How the data were processed

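Tags were measured in 4 of the 8 libraries: H3K4me3 and input of wt mESCs, and H3K4me3 of menin-null mESCs and wt PILECs. Illumina GAII reads of 36 bp were placed on mm9 by the authors, who retained those at a unique location and, by their methods, with no more than 2 mismatches. The aligner is not given in the sources used here. The deposited files list 1 tag position per line, not normalized, and 1.09% of the H3K4me3 and 1.23% of the input tags list more mismatches than 2. All were kept.

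Each tag was moved 125 bp to the middle of the average 250-bp fragment and counted around starts of GENCODE M1 genes on mm9, 1 start per gene, chosen by the menin-null mESC library (which has 3517028 tags) as that with most H3K4me3 tags. Counts were scaled by the total of deposited tags, so the enriched share of the H3K4me3 library lowers its ratios elsewhere. The window limit of 5 tags is a Poisson p of 1e-05 against a mean of 0.190 tags per window. Named genes were the 12 protein-coding promoters with the most tags (1 per enriched region) and the 12 longest regions. Also named were the 8 regions with the most tags, in all and among distal ones, and the leading, broadest and lowest-ratio members of each class. Any others were chosen after their values were seen. The members and lists were chosen with earlier results of these data known. The calls were tried on simulated regions over a uniform background with even input. Recovery was required of strong simulated regions only, so calls near the limits or where input varies were not tested. Python 3.11.15, numpy 2.4.6, pandas 2.3.3, scipy 1.17.1 and matplotlib 3.10.9 were used. Alternatives covered duplicates, mismatches, shift, scaling, depth, window, fold, tag minimum, start, CpG limits and region settings. The other 4 libraries were not used here, and a few genes that the naming rule gave and 1 promoter sequence are not reported here.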

Additional observations from a re-analysis of the deposited data

How the results depend on the processing

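The number of marked promoters stayed within 1.5 times of 12177 under each alternative, from 9404 (at least 8-fold, 42.3%) to 13348 (at least 2-fold). The marked share of the high, intermediate and low CpG classes (88.1%, 13.2% and 0.989%) moved to 93.5%, 18.2% and 1.36% when the ratio was scaled by tags outside enriched regions, to 92.4%, 38.2% and 2.00% with CpG limits of 0.75 and 0.5, to 94.8%, 19.8% and 1.55% at 2-fold, and to 69.1%, 7.09% and 0.349% at 8-fold. It was 11.8% in the intermediate class at the 5′ end of the gene. The order of the classes was the same in each. The 12031 regions became 7796 at a minimum of 1000 bp, with a median of 1400 bp. Regions of at least 4 kb (49) were 12 with the H3K4me3 library thinned to 50%, 28 at a Poisson p of 1e-07 and 98 over gaps of up to 1000 bp. The share of regions at starts (90.3%) was 91.6% with each position counted once, 93.4% when thinned, 92.2% at 1e-07 and 93.8% at 1000 bp, and the 765 distal regions were 423 when thinned and 324 at 1000 bp. Tags within 1 kb of a start (44.2%) were 43.7% with each position counted once, 44.16% with at most 2 mismatches, 44.1% at the 5′ end of the tag, 49.2% within 2 kb and 42.6% around protein-coding starts. Scaling by tags outside enriched regions added 0.69 to every log2 ratio, so the medians of hepatocyte (0.12), muscle (0.25), blood (0.17), keratin (0.39), olfactory receptor (0.50) and defensin (0.50) genes turned from below to above 0. The other 94 class medians computed under alternatives had the same sign as reported. Thinned, stricter or longer limits leave fewer tags or regions by construction, and the cause of the other moves was not tested. Without chromosome 8, chosen after seeing the data, 11505 promoters (54.4%), 11321 regions and 42 regions of at least 4 kb were called, and ranked by the ratio, also chosen after seeing the data, 0 of the 12 leading promoters lay there in place of 9. Starts chosen by the wt mESC library, also tried after seeing the data for imprinted genes, gave 26 marked in place of 24. Leaving out a replicate could not be done with 1 library a side. No paired analysis was possible because each group has 1 library. Depth limits weak sites, since 2432377 tags give a mean of 0.190 tags per window.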

Other observations

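Of the 10477 genes with a region at any of their starts, 325 had at least 2 separate regions, and 14 had 3, among them Gnas, Kdm2b, a demethylase that binds CG, and Rara, a retinoic acid receptor. Levels at the 12177 marked promoters had a Spearman correlation of 0.946 with those of the menin-null mESC library, which also chose the start, and of 0.756 with those of the wt PILEC library. These are descriptions across genes, which share each library.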
